A study of Mus musculus with 32 samples.

Results

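Immediate early genes are switched on within minutes of a stimulus, without new protein synthesis, and many of them encode short-lived transcription factors or proteins that limit the signal. In endocrine cells they respond to peptide hormones that act through cyclic AMP and kinase cascades. LH acts on Leydig cells, which lie between the tubules and make testosterone, and FSH on Sertoli cells, which nurse the germ cells inside the seminiferous tubules.

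The genes described are Egr1, Egr2, Egr3, Ier2, Ier3, Ier5, Myc, Klf4, Klf6 and Btg2, chosen by symbol, and each has 1 probe set that names that gene alone. They are 10 of 19938 genes that the arrays measure with a single-symbol probe set, among 35556 probe sets. All 10 passed the filter on low values, a linear signal above 50 in at least 1 array, in every comparison. Egr1, Egr2 and Egr3 are zinc-finger transcription factors of one family, Myc is a basic helix-loop-helix factor that promotes growth, and Klf4 and Klf6 are Kruppel-like zinc-finger factors. Btg2 is an antiproliferative protein that recruits the deadenylase complex to mRNA. Ier2, Ier3 and Ier5 share a name given for their rapid induction and are not all of one family; Ier3 is known as a regulator of cell survival and Ier2 and Ier5 as related nuclear proteins.

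The arrays hold testis RNA of double heterozygote mice that carry the RiboTag allele and either AMH-Cre, which is active in Sertoli cells, or Cyp17iCre, which is active in Leydig cells. RiboTag places a hemagglutinin tag on ribosomes of Cre-expressing cells, an anti-HA immunoprecipitate (IP) recovers the mRNA bound to them, and the input is RNA of the homogenate. AMH-Cre: RiboTag mice gave 5 inputs and 5 IPs after saline, and IPs after acyline (2), acyline and FSH for 1 h (2) or 4 h (2), cetrorelix (2), and cetrorelix and testosterone (2). Cyp17iCre: RiboTag mice gave 3 inputs and 3 IPs after saline, and IPs after acyline for 4 days alone (2) or followed by a single injection of human LH for 1 h (2) or 4 h (2). Acyline and cetrorelix are GnRH antagonists, which lower pituitary LH and FSH, so every hormone array carries an antagonist as well. The tag was also seen in scattered tubule cells of Cyp17iCre: RiboTag mice. The study proposes, from the mRNA enrichment, that these are Sertoli cells. The summed Sertoli markers (linear signal) were 3790 to 4442 in the Cyp17iCre saline IPs and 2961 to 3117 in the inputs. Their part in the values of the Leydig IPs was not tested. In the saline IPs, all 9 tested Sertoli cell markers were enriched at least 2-fold in the AMH-Cre line and all 6 tested Leydig cell markers in the Cyp17iCre line. Arrays of one group correlated at 0.988 to 0.994 and array medians lay between 6.36 and 6.50 on the log2 scale. The study's methods describe the Sertoli hormone groups as arrays of animals. Its saline groups are given as mice, 5 AMH-Cre: RiboTag and 3 Cyp17iCre: RiboTag. For the Leydig acyline and LH groups the sources used here do not say whether replicates were separate animals. There p-values measure the spread between arrays, which may be technical. In RNA of a tissue, fewer cells of a type and less RNA per cell cannot be told apart.

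The 300-base RefSeq windows (250 bases before to 50 after the start site, GRCm38.p6, 5′ to 3′ on the gene's strand) of 3 of these genes are shown because Btg2 and Ier3 had higher values in both arrays at 1 h after LH than in either acyline array and Egr2 did not. Capitals mark the cyclic AMP response element (CRE, TGACGTCA), its short form (TGACG), the CArG box of serum response factor and the EGR site (GCGNGGGCG), searched on both strands; the Btg2 window lies at chr1:134079106-134079405 on the minus strand, the Ier3 window at chr17:35821463-35821762 on the plus strand and the Egr2 window at chr10:67537619-67537918 on the plus strand.
Btg2: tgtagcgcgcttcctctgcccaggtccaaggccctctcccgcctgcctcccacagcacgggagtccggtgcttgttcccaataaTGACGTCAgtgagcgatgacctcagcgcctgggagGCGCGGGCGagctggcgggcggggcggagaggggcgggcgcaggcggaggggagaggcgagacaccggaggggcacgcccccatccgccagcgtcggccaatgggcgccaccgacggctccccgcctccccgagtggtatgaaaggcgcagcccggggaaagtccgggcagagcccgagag
Ier3: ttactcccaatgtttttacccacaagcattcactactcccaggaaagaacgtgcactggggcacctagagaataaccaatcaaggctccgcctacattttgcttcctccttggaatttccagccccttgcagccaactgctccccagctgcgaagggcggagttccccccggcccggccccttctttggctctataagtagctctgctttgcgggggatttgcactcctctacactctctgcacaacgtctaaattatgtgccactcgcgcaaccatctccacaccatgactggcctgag
Egr2: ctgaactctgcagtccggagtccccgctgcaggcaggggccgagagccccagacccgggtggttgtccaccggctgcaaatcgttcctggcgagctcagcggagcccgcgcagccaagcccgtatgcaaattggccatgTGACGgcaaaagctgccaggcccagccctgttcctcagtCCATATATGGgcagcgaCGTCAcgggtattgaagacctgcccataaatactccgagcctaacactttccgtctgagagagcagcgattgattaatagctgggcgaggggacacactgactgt
The Btg2 window holds 1 full CRE at -166 to -159 from the start site, which overlaps 2 short forms, and 1 EGR site at -131 to -123. The full CRE was found on either strand in 1.79% of 32851 windows of this length and the EGR site in 5.55%. The Egr2 window, which belongs to 1 of 5 listed starts, holds a CArG box at -72 to -63 (1.63% of windows) and 2 short forms of the CRE (20.8%). The Ier3 window holds none of these and 1 GC box (GGGCGG, 35.7% of windows), a motif left in lower case, of which the Btg2 window has 3. A TATA box (TATAAA, 13.6% of windows) and an E-box (CACGTG, 7.15%) are in none of the 3 windows. Windows were searched for 6 of the 10 genes. Of those not shown, the Klf4 window held 2 EGR sites, 1 short form of the CRE, 4 GC boxes and 1 E-box. Klf4 differed by -0.20 from acyline at 1 h after LH. The Ier5 and Klf6 windows held none of the motifs marked by capitals. A match of letters is a description, not a site shown to be bound.

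Btg2 and Egr1 had the largest increases of the 10 genes 1 h after LH in Leydig IPs, but the 2 LH arrays were far apart. Btg2 was measured at 7.17, 7.26 and 6.99 (log2) after saline, at 6.86 and 7.13 after acyline, at 9.99 and 8.08 at 1 h after LH and at 6.84 and 6.79 at 4 h. Both 1 h arrays were above every other Leydig IP, and both 4 h arrays were below both acyline arrays by a small margin. Relative to acyline, Btg2 was 4.12-fold higher at 1 h (log2 2.04, standard error 0.479, 95% confidence interval 0.95 to 3.14, n = 2 and 2), the 4th largest increase of 24461 probe sets tested, with a limma p of 0.00236 and an adjusted p of 0.679.

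Egr1, the family member best known as a hormone-induced factor, stood at 6.10, 6.35 and 5.95 after saline and at 6.36 and 6.30 after acyline. At 1 h after LH its values were 9.35 and 6.72, and at 4 h they were 6.89 and 6.36. Both 1 h arrays were above both acyline arrays, while the 1 h and 4 h groups overlapped. Replicate 1 exceeded the acyline mean by 3.03 and replicate 2 by 0.39 on the log2 scale. The mean difference from acyline was 1.71 (standard error 0.664, 95% confidence interval 0.19 to 3.22, limma adjusted p = 0.823).

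Ier2 was measured at 6.30 and 6.17 after acyline, 7.75 and 6.40 at 1 h after LH and 6.88 and 6.64 at 4 h. Its saline values were 6.00, 5.79 and 6.04. The LH arrays at both times were above every acyline and saline array. The difference from acyline was 0.84 at 1 h (standard error 0.351, limma adjusted p = 0.823) and 0.52 at 4 h (standard error 0.351, limma adjusted p = 0.467).

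Ier3 was measured at 5.77, 5.70 and 5.77 after saline, 5.63 and 5.83 after acyline, 6.77 and 5.86 at 1 h and 6.24 and 5.81 at 4 h. Only replicate 1 at each LH time stood clearly above the acyline arrays. The difference at 1 h was 0.58 (standard error 0.262, limma adjusted p = 0.826).

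Myc followed a different course. It was measured at 6.01, 6.41 and 6.16 after saline, 7.57 and 6.88 after acyline, 8.19 and 7.88 at 1 h after LH and 8.23 and 7.03 at 4 h. Every acyline and LH array was above every saline array, and both 1 h arrays were above both acyline arrays. Acyline alone differed from saline by 1.04 (standard error 0.334, limma adjusted p = 0.242), the 12th largest increase of 24461. The difference of LH 1 h from acyline was 0.81 (standard error 0.366, limma adjusted p = 0.826).

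**Figure D1:**
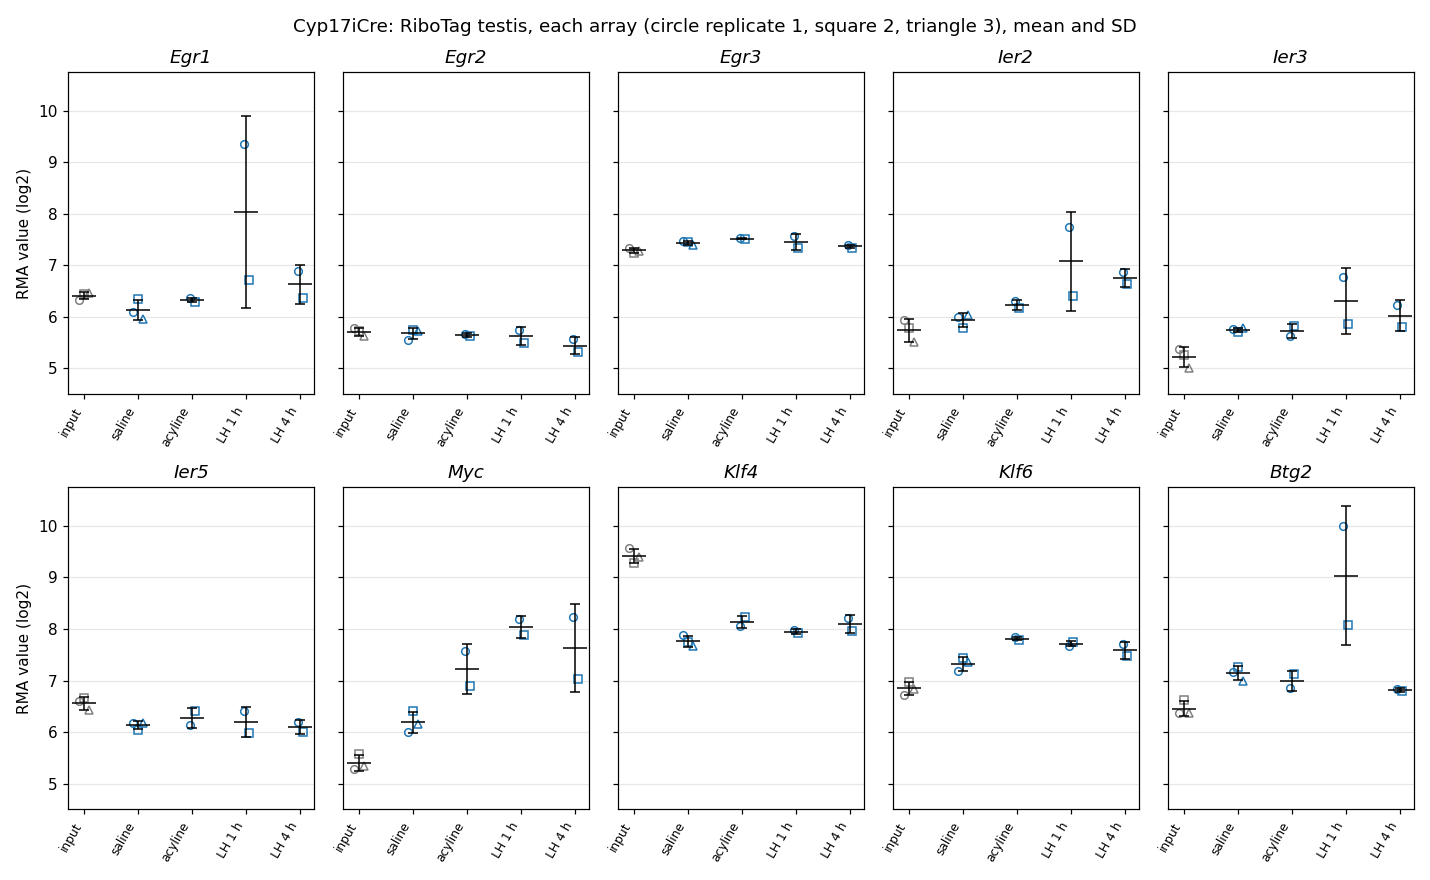
RMA values (log2) of the 10 genes in each array of Cyp17iCre: RiboTag testis, inputs in grey and IPs in blue, with the mean and SD as bars. Btg2 and Egr1 reach 9.99 and 9.35 in replicate 1 at 1 h after LH against 8.08 and 6.72 in replicate 2, Myc is above its saline values in all acyline and LH arrays, and Klf4 is highest in the inputs.

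The other 5 genes differed little from acyline at 1 h after LH, and all 5 intervals held 0. Their differences from acyline were -0.02 for Egr2 (95% confidence interval -0.32 to 0.28), -0.06 for Egr3 (-0.30 to 0.18), -0.07 for Ier5 (-0.44 to 0.29), -0.20 for Klf4 (-0.48 to 0.09) and -0.10 for Klf6 (-0.38 to 0.18). In the Leydig IPs Egr2 was measured at 5.32 to 5.75 and Egr3 at 7.34 to 7.57 over all 9 arrays. The Egr2 values lay on either side of the filter limit, a linear signal of 50. So low a signal may hide a change in Egr2.

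None of the 10 genes was called in LH 1 h against acyline, the call rule between IPs being a fold of at least 1.5 with an adjusted p under 0.05, where 0.00818% of probe sets were called (2 of 24461). At an unadjusted limma p under 0.05 the count was 3 (Btg2, Egr1 and Ier2), beside 6.06% of all probe sets, and the ordinary contrast with unadjusted p and the same fold called 1 (Btg2). For 5 genes both LH 1 h arrays were above both acyline arrays, which held for 17.2% of probe sets, and for 2 genes both were below (19.8%).

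Several of these genes were among the probe sets by which replicate 1 of LH 1 h most exceeded replicate 2. Egr1 had the largest gap of all 24461 probe sets between replicate 1 and replicate 2 in that direction, 2.64 on the log2 scale or 6.22-fold. Btg2 ranked 4th (1.91), Ier2 8th (1.35) and Ier3 49th (0.91), and Myc had a gap of 0.30. A gap of at least 1 was seen in 3 of the 10 genes, in 5 of 24 other immediate early genes and in 0.131% of all probe sets, among which the median gap was 0.02. In the opposite direction, with replicate 2 higher by at least 1, stood 0.895% of all probe sets and none of the 10 genes or of the 24 others. In the acyline pair none of the 10 genes had a gap of at least 1 (0.405% of probe sets). In the LH 4 h pair 1 had (Myc, 1.20), beside 0.519% of probe sets. At any size of gap, replicate 1 was the higher in all 10 genes in the LH 4 h pair (median gap 0.24). This held for 9 in the LH 1 h pair (0.36) and 6 in the acyline pair (0.03). Of the 24 others it held for 19, 19 and 14. The median gap of all probe sets was 0.01 in the LH 4 h pair and 0.02 in the acyline pair. The Leydig cell marker sum, over 6 of 8 listed markers measured, was 33165 and 31184 (linear signal) in LH 1 h replicates 1 and 2, the Sertoli sum 3903 and 3056, the peritubular myoid sum 2422 and 3374 and the macrophage sum 523 and 506. None of 9 heat shock genes had a gap of at least 1 there. The part of handling, dose or time of collection in the gap was not tested.

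**Figure D2:**
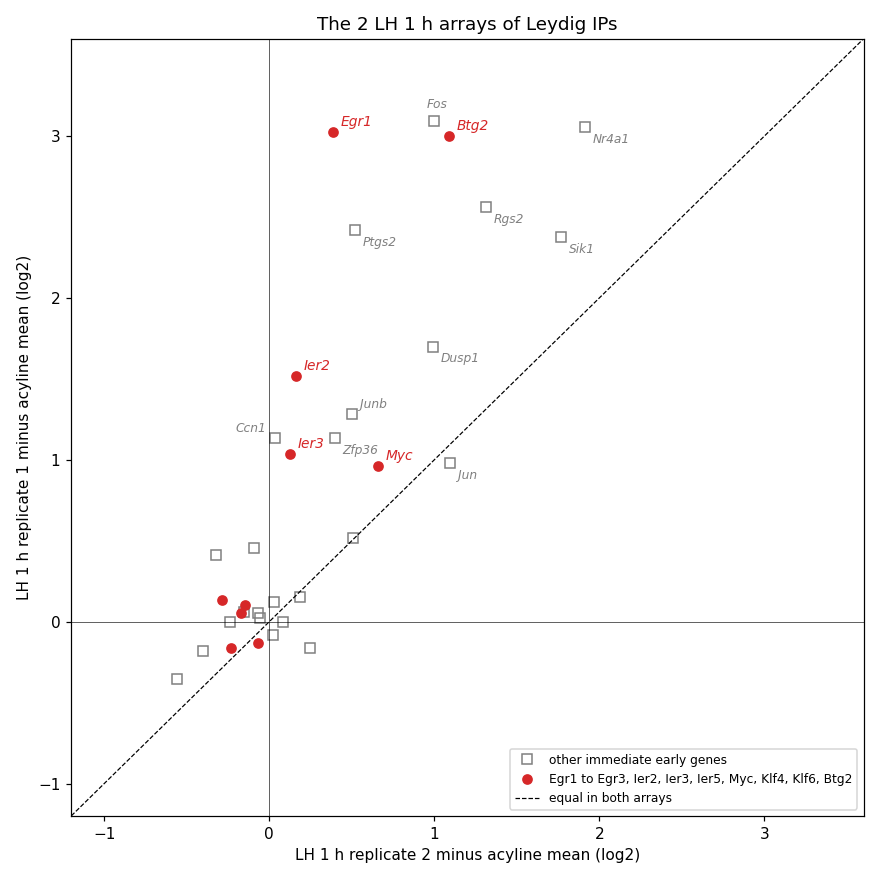
Difference of each LH 1 h array from the acyline mean (log2), replicate 2 on the horizontal and replicate 1 on the vertical axis, for the 10 genes (filled circles) and 24 other immediate early genes (open squares); the dashed line marks equal values. Egr1 lies at 0.39 and 3.03, Btg2 at 1.09 and 3.00, and the genes that moved lie mostly above the line.

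Without replicate 2 of LH 1 h, the differences from acyline were 3.03 for Egr1, 3.00 for Btg2 and 1.52 for Ier2. In that fit the lone LH 1 h array is assumed to vary like the other groups, so only effect sizes are given. Leaving out any other Leydig IP gave no call among the 10.

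At 4 h after LH none of the 10 was called against acyline, where 0.613% of probe sets were called, and none had an unadjusted limma p under 0.05 (18.3% of probe sets). The values were 0.52 for Ier2, 0.41 for Myc, 0.30 for Egr1, 0.29 for Ier3 and -0.18 for Btg2. Between 1 h and 4 h Btg2 was lower by the 2nd largest margin of 24461 probe sets, a difference of -2.22 (standard error 0.479, 95% confidence interval -3.31 to -1.13, limma adjusted p = 0.102). None of the 10 was called in that comparison, in which 0.2% of probe sets were, and the unadjusted limma p was under 0.05 for 1 (Btg2), beside 16.1% of probe sets. Without replicate 2 of LH 1 h, the differences there were -3.17 for Btg2 and -2.73 for Egr1.

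Against saline, the comparisons of which were chosen after the values were seen and share the LH arrays with those above, Myc was called at 4 h after LH (log2 1.44, 2.72-fold, standard error 0.334, n = 2 and 3, limma adjusted p = 0.0433), the 1 call among the 10 where 3.32% of probe sets were called. The call was lost without LH 4 h replicate 1 (0.84, adjusted p = 0.149), without any of the saline arrays and under other settings, the adjusted p over the alternatives in which it was lost being 0.0554 to 0.149. Ier2 was called in that comparison (0.81) without either LH 1 h array, with an adjusted p of 0.0178 and 0.0176, against 0.166 with all arrays. At 1 h none was called (0.29% of probe sets), with 6 at an unadjusted limma p under 0.05 (9.53% of probe sets). The values there were 1.84 for Myc (adjusted p = 0.0867), 1.89 for Btg2 (0.16), 1.90 for Egr1 (0.328) and 1.13 for Ier2 (0.253).

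Acyline without LH gave no call among the 10 against saline in the Leydig IPs (0.143% of probe sets called), with 3 at an unadjusted limma p under 0.05, beside 13.7% of all probe sets. Besides Myc these were Klf6 (0.49, standard error 0.111, adjusted p = 0.138) and Klf4 (0.38, standard error 0.113, adjusted p = 0.216). Klf6 was measured at 7.18, 7.43 and 7.35 after saline and 7.84 and 7.79 after acyline, and Klf4 at 7.88, 7.74 and 7.67 and at 8.06 and 8.23. Neither pair of groups overlapped, which 19.2% of probe sets shared in that direction. The Leydig marker sum was 29357 to 32198 after acyline and 40198 to 42458 after saline, and its part in these values was not tested.

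Other immediate early genes, a list of 24 that holds Fos, Jun and Nr4a relatives, signal inhibitors and others, gave 1 call at 1 h after LH against acyline. That was Sik1, a kinase that restrains CREB coactivators, measured at 7.74 and 7.76 after acyline and 10.12 and 9.52 after LH (2.07, standard error 0.179, limma adjusted p = 0.0402). The list's median was 0.18 and that of the 10 genes 0.28, against 0.00 for all probe sets tested. Nr4a1, an orphan nuclear receptor, had the largest value of the list and was measured at 8.21 and 8.31 after acyline and 11.31 and 10.17 after LH (2.48, adjusted p = 0.185). Fos, the AP-1 subunit, stood at 5.37 and 5.19 and at 8.38 and 6.28 (2.05, adjusted p = 0.738). Of 16 tested relatives of the 10 genes none was called at 1 h, and at 4 h 1 was: Tob1, of the same antiproliferative family as Btg2 (0.76, standard error 0.11, adjusted p = 0.0389). Of 17 partners and regulators, such as the Egr corepressors Nab1 and Nab2 and the Myc partner Max, none was called at either time, nor was any of 9 heat shock genes.

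At 4 h after LH 2 of the 24 other immediate early genes were called against acyline, in opposite directions. Sik1 was still higher, at 9.49 and 9.32 (1.66, standard error 0.179, limma adjusted p = 0.0184). Gem, a small GTP-binding protein, was lower. It was measured at 7.05, 7.11 and 7.10 after saline, 8.63 and 8.10 after acyline, 8.20 and 8.61 at 1 h after LH and 6.30 and 6.22 at 4 h. It was called higher after acyline than after saline (1.28, adjusted p = 0.0377), differed by 0.04 between LH 1 h and acyline (adjusted p = 0.98), and was called lower at 4 h than in acyline (-2.10, adjusted p = 0.00621) and than at 1 h (-2.15, adjusted p = 0.00994). Against saline the called genes of these lists were Nr4a1 (2.92), Sik1 (2.22), Gem (1.32) and Tob1 (0.86) at 1 h and Sik1 (1.80), Gem (-0.83), Tob1 (0.72) and Trib1 (-0.63) at 4 h. Of the markers of spermatogonia and spermatocytes, Kit was called lower at 4 h than in acyline (-0.71, limma adjusted p = 0.0322) and than at 1 h (-0.82, adjusted p = 0.0328). The other markers of that list were called in neither comparison. They lay between 0.00 and 0.24 against acyline and between -0.10 and 0.33 against 1 h. The part of Kit in these values was not tested.

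Across the 9 Leydig IPs the probe sets outside the 10 genes whose values followed Egr1 most closely were Fos (Pearson r 0.962), Ccn1 (0.957), Ccrl2 (0.956), Trip11 (0.954) and Rufy1 (0.952). Among the 10, Ier3 (0.937), Btg2 (0.916) and Ier2 (0.907) were next and Myc was at 0.659. These are descriptions over 9 arrays that share 1 array with a high value, LH 1 h replicate 1. Over all 24 IPs the closest outside the 10 genes were Fos (0.918), Nr4a1 (0.871) and Ptgs2 (0.865). Among the 10, Ier3 was at 0.898, Btg2 at 0.807 and Myc at 0.596. Ier2, which was high in every Sertoli IP, was at 0.187.

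Klf6 and Ier2 were enriched in Sertoli IPs, and Klf4 was depleted in the IPs of both lines. Klf6 was measured at 7.00, 6.60, 6.75, 7.12 and 6.93 in the AMH-Cre inputs and at 8.81, 8.83, 8.65, 9.02 and 8.76 in the IPs. The groups did not overlap, and the IPs exceeded the inputs 3.83-fold (log2 1.94, standard error 0.103, n = 5 and 5, limma adjusted p = 6.4e-09). In the Cyp17iCre line it was measured at 6.72, 6.98 and 6.84 in inputs and 7.18, 7.43 and 7.35 in IPs, a difference of 0.48 (standard error 0.0997, adjusted p = 0.00366), under the 2-fold threshold.

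Ier2 was measured at 6.15, 6.28, 6.02, 6.02 and 6.11 in the AMH-Cre inputs and 7.59, 7.54, 7.41, 7.46 and 7.41 in the IPs, 2.57-fold higher (log2 1.36, standard error 0.0676, limma adjusted p = 3.58e-09). In the Cyp17iCre line inputs (5.94, 5.78 and 5.50) and IPs (6.00, 5.79 and 6.04) overlapped, with a difference of 0.20 (adjusted p = 0.201). Every Sertoli IP, whatever the treatment, had an Ier2 value of 7.36 or above, and of the Leydig IPs only LH 1 h replicate 1 did.

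Klf4, which postmeiotic germ cells are also known to express, was measured at 9.48 to 9.61 in the AMH-Cre inputs and 7.96 to 8.32 in the saline IPs (log2 -1.42, standard error 0.0696, limma adjusted p = 3.21e-09). In the Cyp17iCre line it was measured at 9.57, 9.28 and 9.39 in inputs and 7.88, 7.74 and 7.67 in IPs (-1.65, standard error 0.0988, adjusted p = 3.33e-06). Spermatid markers were lower in the same IPs, with 7 of 10 depleted and a summed signal of 24709 to 29812 against 56988 to 62415 in the AMH-Cre line, and 9 of 10 depleted with 26977 to 27585 against 63639 to 67817 in the Cyp17iCre line. Their part in the Klf4 values was not tested.

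Of the 10 genes 3 were called in the Sertoli line, where 24.1% of probe sets were called, and 1 in the Leydig line, where 21.7% were. Both counts are of the order of the background or below it. Below the 2-fold threshold with an adjusted limma p under 0.05 were, in the Sertoli line, Ier3 (0.68), Ier5 (-0.71), Btg2 (-0.46) and Myc (0.22), and in the Leydig line Myc (0.79), Btg2 (0.69), Ier3 (0.53), Klf6 and Ier5 (-0.43). Egr1, Egr2 and Egr3 had an adjusted p above 0.05 in both lines, Egr1 at 0.08 in the Sertoli and -0.27 in the Leydig line.

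The difference between the enrichment in the 2 lines, a test added after the values were seen, was called for 3 of the 10 genes (11.5% of probe sets). It was 1.46 for Klf6 (standard error 0.159, limma adjusted p = 1.5e-06) and 1.16 for Ier2 (standard error 0.135, adjusted p = 3.2e-06), higher in the Sertoli line. For Btg2 it was -1.14 (standard error 0.124, adjusted p = 1.41e-06), with IPs below inputs in the Sertoli line (6.08 to 6.25 against 6.49 to 6.79) and above them in the Leydig line (6.99 to 7.26 against 6.37 to 6.62). For Myc it was -0.57 (standard error 0.142, adjusted p = 0.00451), under 2-fold. Cre line and the handling of its animals cannot be told apart. In the other gene lists the called genes with the largest values were Rgs2 (2.17), Hspb1 (2.11), Hspd1 (1.76) and Nab1 (1.69) for Sertoli enrichment, Klf15 (2.64), Hspd1 (2.16), Rgs2 (1.91) and Hspe1 (1.81) for Leydig enrichment, and Hspb1 (2.23), Klf15 (-1.94), Bag3 (-1.64) and Mycn (1.59) for the difference.

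**Figure D3:**
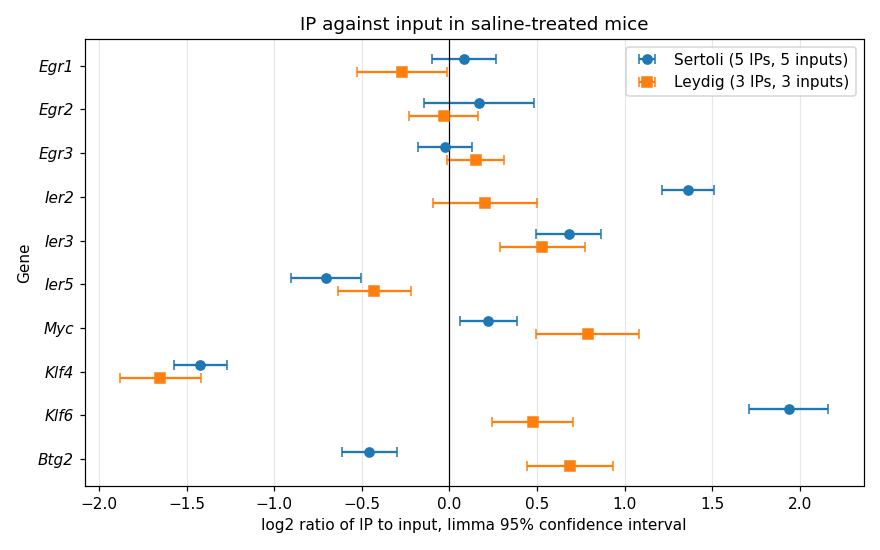
log2 ratio of IP to input in saline-treated mice for each gene, with the limma 95% confidence interval, in the Sertoli (circles) and Leydig (squares) lines. Klf6 and Ier2 lie at 1.94 and 1.36 in the Sertoli line and 0.48 and 0.20 in the Leydig line, Klf4 at -1.42 and -1.65, and Btg2 lies on opposite sides of 0.

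FSH gave no call among the 10 genes in Sertoli IPs at either time. At 1 h, 0% of probe sets were called against acyline, and 2 of the 10 genes had an unadjusted limma p under 0.05, beside 9.43% of all probe sets. These were Klf6, measured at 8.96 and 9.02 after acyline and 8.69 and 8.58 after FSH (-0.36, standard error 0.134, adjusted p = 0.42), and Ier2, at 7.57 and 7.64 and at 7.38 and 7.36 (-0.23, standard error 0.0953, adjusted p = 0.476). Egr1 was measured at 6.19 and 6.11 after acyline, 6.26 and 6.42 at 1 h and 6.33 and 6.32 at 4 h, and Btg2 at 5.77 and 6.06, at 6.09 and 6.29 and at 6.29 and 6.20. At 1 h the differences were 0.19 for Egr1 (95% confidence interval -0.09 to 0.46) and 0.28 for Btg2 (-0.08 to 0.63), within the spread of the fit. Both FSH 1 h arrays were above both acyline arrays for 3 of the 10 genes (22.5% of probe sets) and below both for 4 (24.4%). In the FSH 1 h arrays the summed markers of spermatogonia and spermatocytes were 9070 to 10446 against 7951 to 8236 after acyline, and the summed Sertoli markers 14874 to 15513 against 16573 to 17443; their part in these values was not tested.

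At 4 h after FSH, 0.0203% of probe sets were called against acyline, and none of the 10 genes had an unadjusted limma p under 0.05 (4.4% of probe sets). Myc was measured at 5.99 and 5.53 after acyline, 5.65 and 5.31 at 1 h and 5.43 and 5.42 at 4 h, a difference of -0.34 at 4 h (95% confidence interval -0.69 to 0.02). These Myc values lay on either side of the filter limit, and so low a signal may hide a change. None of the 10 was called between 4 h and 1 h (0.0243% of probe sets), where 4 had an unadjusted limma p under 0.05, beside 13.4% of probe sets: Klf6 (0.39), Ier2 (0.28), Ier3 (0.21) and Egr3 (-0.36), with adjusted p of 0.246 or above. None of 23 tested other immediate early genes was called in any FSH comparison, and at 1 h Fos had a difference of -0.01 and Nr4a1 of 0.05. Of the Leydig cell markers, Star was called higher at 4 h than in acyline (1.03, limma adjusted p = 0.029). Between 4 h and 1 h Star differed by 0.92 and the other measured Leydig markers by -0.33 to 0.12, none called. The Leydig marker sum (linear signal) was 1090 to 1295 at 4 h and 935 to 1091 after acyline. The part of these markers in the values of the 10 genes was not tested.

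Acyline, cetrorelix and testosterone gave no call among the 10 genes or the other gene lists in Sertoli IPs, where 0.00406%, 0.0122% and 0.00406% of probe sets were called. Differences lay between -0.24 and 0.26 for acyline against saline, -0.25 and 0.27 for cetrorelix against saline and -0.20 and 0.20 for testosterone against cetrorelix, with 2, 2 and 0 genes at an unadjusted limma p under 0.05, beside 5.01%, 4.99% and 5.01% of probe sets. The Ier5 values were 6.48 and 6.54 after cetrorelix, above the 5 saline IPs at 6.15 to 6.32 (0.27, standard error 0.0682, adjusted p = 0.933).

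**Figure D4:**
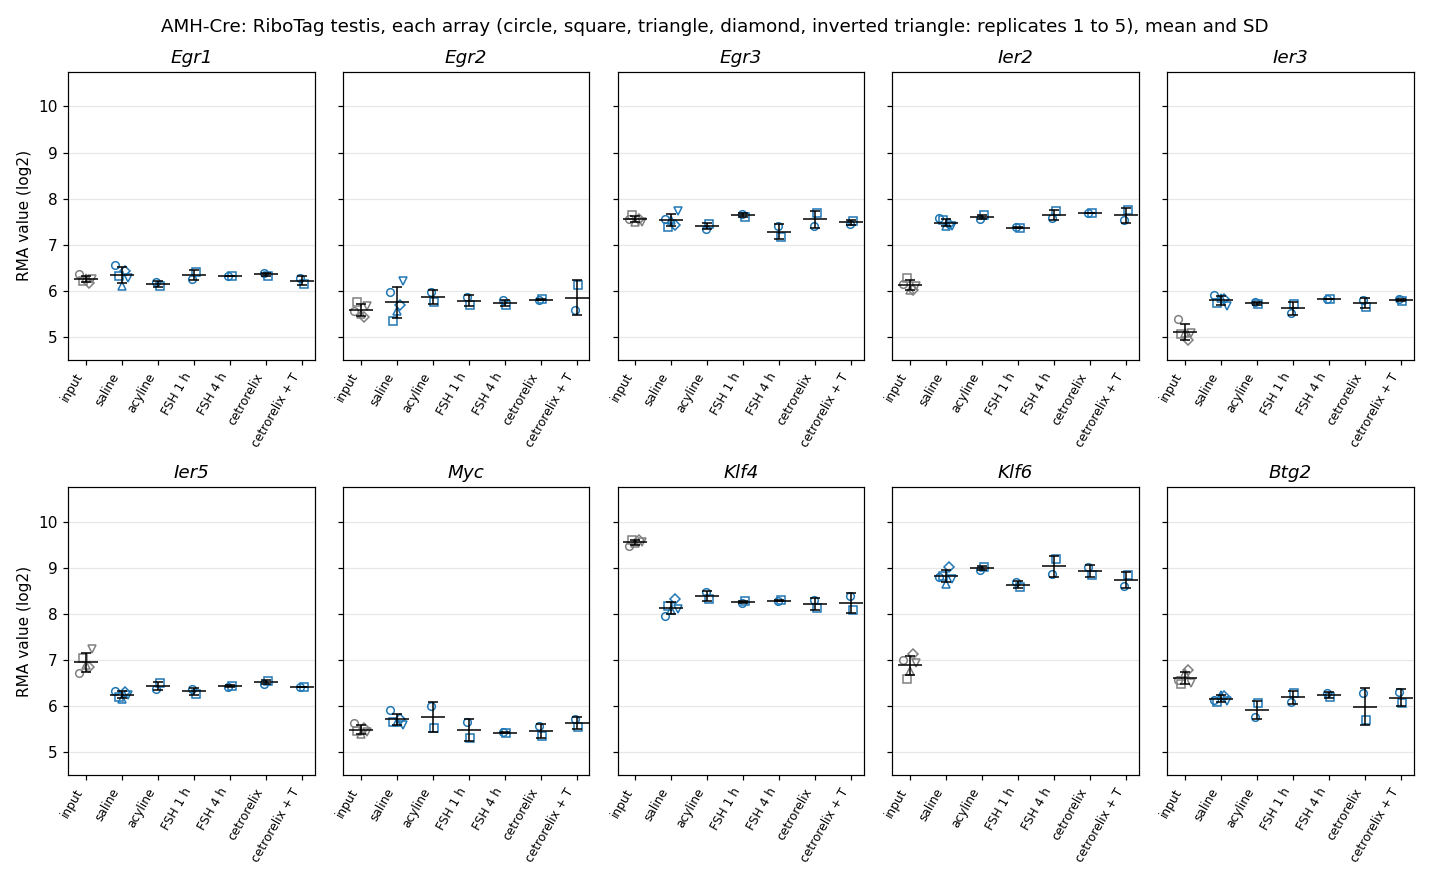
RMA values (log2) of the 10 genes in each array of AMH-Cre: RiboTag testis, inputs in grey and IPs in blue, with the mean and SD as bars. Klf6 and Ier2 are above and Klf4 below their inputs in every IP, and no gene leaves its range after FSH the way Btg2 and Egr1 do in LH 1 h replicate 1 of the other line.

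The difference between the LH effect in Leydig IPs and the FSH effect in Sertoli IPs at 1 h was called for none of the 10 genes (0.0118% of probe sets), with 5 at an unadjusted limma p under 0.05 (4.94% of probe sets). It was 1.77 for Btg2 (standard error 0.509, adjusted p = 0.902), 1.52 for Egr1 (0.673, adjusted p = 0.998), 1.09 for Myc (0.404, adjusted p = 0.968), 1.07 for Ier2 (0.359, adjusted p = 0.948) and 0.69 for Ier3 (0.274, adjusted p = 0.968). Without LH 1 h replicate 2 the values were 2.84 for Egr1, 2.72 for Btg2, 1.75 for Ier2 and 1.15 for Ier3. At 4 h none was called (0.335%) and none had an unadjusted limma p under 0.05 (10.5% of probe sets). The largest value was 0.74 for Myc, and 1.34 for Myc without LH 4 h replicate 2. Of the other lists Nr4a1 was called at 1 h (2.43, limma adjusted p = 0.00935) and Gem (-2.16, adjusted p = 0.00093) and Tob1 (0.69, adjusted p = 0.046) at 4 h. The lines differ in Cre, hormone and antagonist schedule together, which cannot be told apart.

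**Figure D5:**
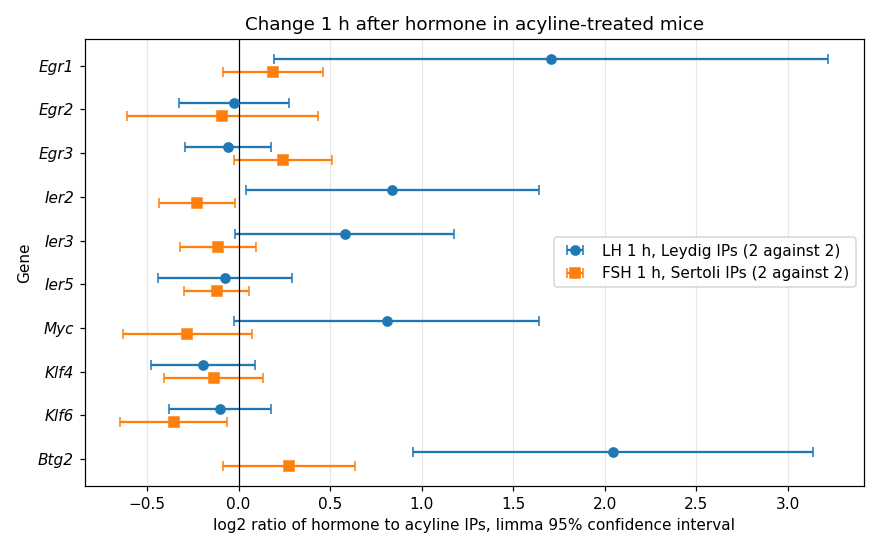
log2 ratio of IPs at 1 h after hormone to acyline IPs with the limma 95% confidence interval, for LH in Leydig IPs (circles) and FSH in Sertoli IPs (squares). Btg2, Egr1, Ier2, Ier3 and Myc lie between 0.58 and 2.04 after LH with wide intervals, and every FSH value lies between -0.36 and 0.28.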

How the data were processed

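RNA was amplified, labeled and hybridized to 32 Affymetrix Mouse Gene 1.0 ST arrays, and the authors deposited log2 values normalized with RMA; its RMA version was not stated in any source used. RMA makes arrays alike in distribution and compresses large ratios. Groups came from the titles; 4 cetrorelix arrays whose source label reads input were taken as IPs from title and sample type. Probe sets were named from the platform table (21789 with 1 symbol, 1621 with several, 12146 unlisted). Contrasts were fitted with limma 3.58.1 in R 4.3.3 on probe sets with a linear signal above 50 in at least 1 array of the fit, adjusted by Benjamini-Hochberg over all probe sets tested, and called where the adjusted p was under 0.05 and the fold at least 2 against inputs or 1.5 among IPs. Fits held the saline arrays of a line (residual degrees of freedom 8 Sertoli, 4 Leydig), its 15 Sertoli or 9 Leydig IPs (9, 5), all 24 IPs (14), or, for enrichment between lines, the 16 saline arrays (12). All 10 genes are named, and from the other gene lists the called genes of the largest change (up to 4 a comparison) and those a value is read beside. The genes and lists were chosen with earlier results of these data known. Motif windows were read in Python 3.11.15. The fits were tested on simulated data. Alternatives were the filter, median centring, quantile normalization, the ordinary contrast with and without adjustment (the latter is the methods' contrast), only the groups compared, a replicate block, the first 3 Sertoli saline replicates only, and leaving out each array.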

Additional observations from a re-analysis of the deposited data

Results flagged for a closer look

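The difference in enrichment of IP over input between the Sertoli and Leydig lines (limma on the 16 saline arrays, Sertoli minus Leydig, log2) had an adjusted p under 0.05 for 4 of the 10 genes. The values were 1.16 for Ier2, 1.46 for Klf6, -1.14 for Btg2 and -0.57 for Myc, the last under 2-fold. With the 2-fold rule 3 were called, where 11.5% of probe sets were. At an unadjusted limma p under 0.05 the count was 5 of the 10, beside 42.7% of probe sets. Of 20 pairs of gene and group with enough arrays for a test of outlying arrays, 0 held one. These pairs covered only the 5 Sertoli saline inputs and the 5 Sertoli saline IPs. No Leydig group and no hormone group was tested, so the LH 1 h pair was not covered.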

How the results depend on the processing

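Over 3500 values of single genes under alternatives, 3460 did not change their call, 12 lost a call, 28 gained one and 0 were reversed. The ordinary contrast with unadjusted p called 1 gene in LH 1 h against acyline (Btg2), 1 in LH 4 h against LH 1 h (Btg2), 4 in the difference of LH and FSH effects at 1 h and 3 in LH 1 h against saline, where a fit of only the groups compared called 1 (Myc). Over all probe sets it called 164 in LH 1 h against acyline, against 2 with moderated, adjusted tests, and 590 in LH 4 h against LH 1 h, against 49. The Myc call in LH 4 h against saline was lost, leaving 0, with no filter, with the ordinary contrast and Benjamini-Hochberg adjustment, and with the replicate block. It was also lost with only the groups compared (adjusted p = 0.0692) and without LH 1 h replicate 1 (0.0557) or 2 (0.0554), where Ier2 was called in its place (0.81, adjusted p = 0.0367, 0.0178 and 0.0176). Leaving out 1 array gave 0 to 3 genes in LH 1 h against acyline, 0 to 2 in LH 4 h against LH 1 h, 0 to 4 and 0 to 1 in the differences of LH and FSH effects at 1 h and 4 h, 0 to 3 in LH 1 h against saline and 0 to 1 in LH 4 h against saline. The highest counts in the comparisons with LH 1 h came from fits that held 1 LH 1 h array. The share of all probe sets called in those fits was not set beside them. The 3 genes called in Sertoli enrichment, 1 in Leydig enrichment and 3 in the difference of enrichments were as many under every alternative. Same-numbered arrays correlated at -0.178 to 0.161, so the numbers were not taken to pair them, and the replicate block changed no other count of the 10 genes. The study set IPs against their respective inputs. The main enrichment tests here treat IPs and inputs as independent and leave out that pairing. A crossed block, added after seeing the data, called 0 of them in LH 4 h against acyline, FSH 4 h against FSH 1 h and testosterone against cetrorelix. With 2 arrays per hormone group, Egr1, whose replicates lay 2.64 apart, was not called at 1.71. No probe signal over background was given, so its limit on low values was not assessed. The cause of these changes was not tested.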
